A study of Zea mays with 50 samples.

Results

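NAC25, a putative regulator of reproductive phasiRNAs, was expressed in maize leaf protoplasts and set against GFP alone in the same protoplast preparations (preps). The comparison rests on 4 of the 50 libraries of the study, chosen by their labels: NAC25 in preps 2 and 4, and GFP in preps 2 and 4. Protoplasts are cells freed of their wall by enzymes, and reproductive phasiRNAs are phased small RNAs cut from long precursor transcripts in anthers. The NAC25 libraries came from cells of inbred B73 that carried NAC25 with GFP fused in front of it, driven by the 35S promoter, and the GFP libraries from cells that carried GFP alone under that promoter. All cells came from etiolated leaves of more than 10 seedlings per prep, taken 10 to 12 days after germination at 25 °C in the dark. Each library is thus a pool of plants, the expression was driven by a strong constitutive promoter in leaf cells, and the share of cells that took up the construct is not given in the sources used here. A second set of 22 libraries served beside GFP: the 11 other regulators of preps 2 and 4 (EREB69, ZFL1, MYB131, EREB50, DOF7, WRKY81, ZHD4, GBP15, OFP9, ABI5 and bHLH97), each made as a GFP fusion in both preps.

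NAC proteins are plant transcription factors named after NAM, ATAF and CUC, with a conserved DNA-binding domain at the front of the protein and a variable regulatory part behind it. In Arabidopsis, members of the family set organ boundaries, switch on secondary walls, drive leaf senescence and answer drought and salt. NAC25 was tested here because of a proposed role upstream of phasiRNA precursors, so precursor loci (PHAS loci), small RNA genes and gene groups known from other NAC proteins were all read out.

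Values are RPKM, that is, read numbers divided by the length of the row and the size of the library. The table holds 30213 rows (gene models and 9 PHAS loci), of which 28122 had at least 1 RPKM in at least 2 libraries and were tested. A log2 change is the fitted difference of log2(RPKM + 0.5), with its standard error, and understates the change of low rows. Calls needed both a change of at least 1 in size on the log2 scale and a p below 0.05 after Benjamini-Hochberg adjustment in limma, fitted over all 50 libraries with prep as a block. Depth was 10784398 and 7571507 reads in the NAC25 libraries of preps 2 and 4, against 8802767 and 8852808 reads in the GFP libraries. The other libraries held 6830505 to 11875644 reads, except those of EREB69 with 28153231 and 29950351. All errors rest on n = 2 libraries per group, which come from separate preps.

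Few genes passed the test in cells that expressed NAC25, and most of those were higher. Against GFP, 51 rows (0.181% of those tested) were called higher and 5 (0.0178%) lower, each of them in the same direction in both preps. The median log2 change over all tested rows was −0.01, and 4010 rows had an unadjusted p below 0.05. Both NAC25 libraries lay above both GFP libraries in 18.4% of the tested rows and below both in 19.1%. In bulk libraries like these, fewer cells of a type and less RNA per cell cannot be told apart. Without the prep block 15 were called higher and 3 lower. The total also depended on single libraries: 23 were higher and 4 lower without NAC25 replicate 2, 58 and 3 without NAC25 replicate 4, 16 and 2 without GFP replicate 2, and 27 and 2 without GFP replicate 4. In a fit of the 26 libraries of preps 2 and 4 alone, 11 were called higher and 2 lower, and in one of the 4 libraries alone, which leaves the least to estimate the spread from, 0 were called and 3626 had an unadjusted p below 0.05.

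**Figure D1:**
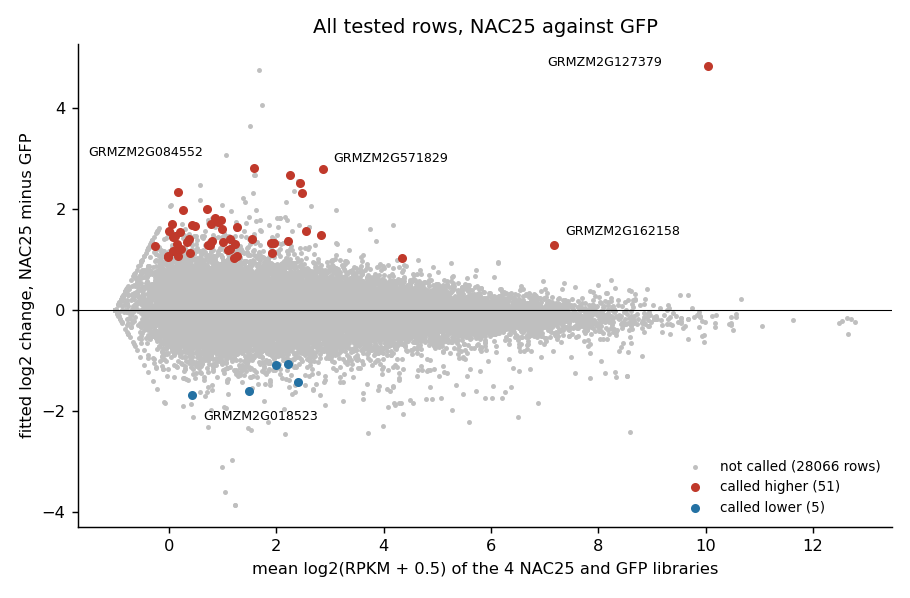
Each point is 1 of 28122 tested rows, with the mean log2(RPKM + 0.5) of the 4 NAC25 and GFP libraries on the x axis and the fitted log2 change, NAC25 minus GFP, on the y axis; red points were called higher (51) and blue points lower (5). The row GRMZM2G127379 stands alone at the upper right with a change of 4.83, and most other red points lie at low mean levels.

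The reference gives no row the name NAC25, so the row with the largest rise was taken in its place after its values were seen. GRMZM2G127379 held 7971 and 3945 RPKM in the NAC25 libraries of preps 2 and 4 (173143 and 57699 reads), against 208 and 186 RPKM in the GFP libraries (3438 and 3151 reads). Both NAC25 libraries were far above every other library, and the 48 others lay between 112 and 291 RPKM. The log2 change was 4.83 ± 0.22 with an adjusted p of 4.23e-14 in limma. The gene was thus well expressed in leaf protoplasts without the construct, and whether it encodes NAC25 is not stated in the files or the reference. The change was larger in prep 2, at 5.25, than in prep 4, at 4.40. Of the 51 higher genes, 42 changed more in prep 2 than in prep 4, and 36 had the higher NAC25 value in prep 2. The 51 were chosen on these same libraries, and the share over all tested rows was not computed. Whether these changes follow the level of GRMZM2G127379 was not tested.

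The other higher genes were mostly low in control cells. In 35 of the 51 the GFP libraries averaged under 1 RPKM, in 3 they averaged at least 10 RPKM, and in 1 both were listed at 0. Outside GRMZM2G127379 the NAC25 libraries averaged 0.856 to 231 RPKM in these genes, with a median of 2.80. In 37 of the 51 at least 1 NAC25 library held fewer than 50 reads, and the fewest reads in 1 of them was 5. The median change over the 50 genes with a GFP value above 0 was 1.40.

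The largest of these rises was in GRMZM2G084552, a gene without a name in the reference. It held 8.28 and 6.71 RPKM in NAC25 cells, against 0.330 and 1.07 RPKM in GFP cells. The groups did not overlap, and the change of 2.80 ± 0.40 had an adjusted p of 0.000564 in limma. Of the 22 libraries of other regulators, both of EREB69, at 6.82 and 6.84 RPKM, were above the NAC25 library of prep 4, and the median over the 22 was 0.917 RPKM.

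GRMZM2G571829, GRMZM2G107268 and GRMZM5G890626 followed at higher levels and with wider errors. GRMZM2G571829 held 16.7 and 20.7 RPKM in NAC25 cells, against 1.48 and 3.38 RPKM in GFP cells, a change of 2.78 ± 0.64 (adjusted p of 0.0428 in limma). GRMZM2G107268 held 13.9 and 9.37 RPKM in NAC25 cells, against 0.733 and 2.38 RPKM in GFP cells, a change of 2.66 ± 0.49 (adjusted p of 0.0165). In all 3 of these genes both NAC25 libraries lay above both GFP libraries, and the GFP library of prep 4 was higher than that of prep 2. GRMZM5G890626 held 10.0 and 15.6 RPKM in NAC25 cells (21 and 22 reads), against 1.26 and 2.45 RPKM in GFP cells (2 and 4 reads), a change of 2.52 ± 0.56. The call of GRMZM2G107268 was lost without NAC25 replicate 2 or GFP replicate 2 (2.17 to 3.15 with any 1 library left out). That of GRMZM5G890626 and that of GRMZM2G571829 were lost without the prep block (adjusted p of 0.177 and 0.165) and whichever 1 of the 4 libraries was left out, although the changes then stayed between 2.41 and 2.98 in these genes.

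Further down, GRMZM2G027794 was low but steady. It held 3.35 and 2.26 RPKM in NAC25 cells (99 and 45 reads), against 0.178 and 0.477 RPKM in GFP cells (4 and 11 reads), a change of 2.00 ± 0.26 with an adjusted p of 0.000237 in limma. No other library in the study reached the lower NAC25 value, the highest being 1.38 RPKM in MYB131 cells of prep 2. GRMZM2G003984 held 3.54 and 2.37 RPKM in NAC25 cells, against 0.619 and 0.321 RPKM in GFP cells, a change of 1.83 ± 0.27 (adjusted p of 0.00103). In that gene an EREB69 library, at 3.67 RPKM, was above both NAC25 libraries, and the other, at 3.31 RPKM, was above that of prep 4. GRMZM2G019328 held 4.04 and 2.38 RPKM in NAC25 cells, against 0.301 and 0.880 RPKM in GFP cells, and GRMZM2G049054 held 2.68 and 3.26 RPKM, against 0.542 and 0.528 RPKM. Their changes were 1.78 ± 0.35 and 1.74 ± 0.34. The call of GRMZM2G019328 was lost without NAC25 replicate 2 or GFP replicate 2 (1.30 to 2.26 with any 1 library left out). That of GRMZM2G049054 was lost with any 1 of the 4 libraries left out (1.61 to 1.87), without the prep block (adjusted p of 0.0526) and with a pseudocount of 0.1.

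The remaining 3 of the 12 largest rises, like GRMZM5G890626, rested on few reads. GRMZM2G333352 held 2.23 and 1.80 RPKM in NAC25 cells (11 and 6 reads), while GFP cells of either prep were listed at 0, and its adjusted p was 0.0274 in limma. AC186164.3_FG001 held 1.72 and 2.05 RPKM in NAC25 cells, against 0.227 RPKM and a listed 0 in GFP cells. GRMZM2G094800 held 10.5 and 13.5 RPKM in NAC25 cells, against 0.957 and 3.73 RPKM in GFP cells. In both of these the median over the 22 libraries of the other regulators, 1.25 and 7.54 RPKM, was nearer to NAC25 cells than to GFP cells, and against the other regulators neither was called (changes of 0.48 ± 0.34 and 0.73 ± 0.40). All 3 calls were lost without the prep block (adjusted p of 0.0745 to 0.0936) and with limma-voom. For GRMZM2G094800 the change was 1.42 without GFP replicate 2 and 3.23 without GFP replicate 4, beside 2.32 ± 0.54 with both, and the call was kept without GFP replicate 4 and lost without any other 1 of the 4 libraries. That of GRMZM2G333352 was lost without NAC25 replicate 2 or either GFP library, and that of AC186164.3_FG001 with any 1 of the 4 left out.

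**Figure D2:**
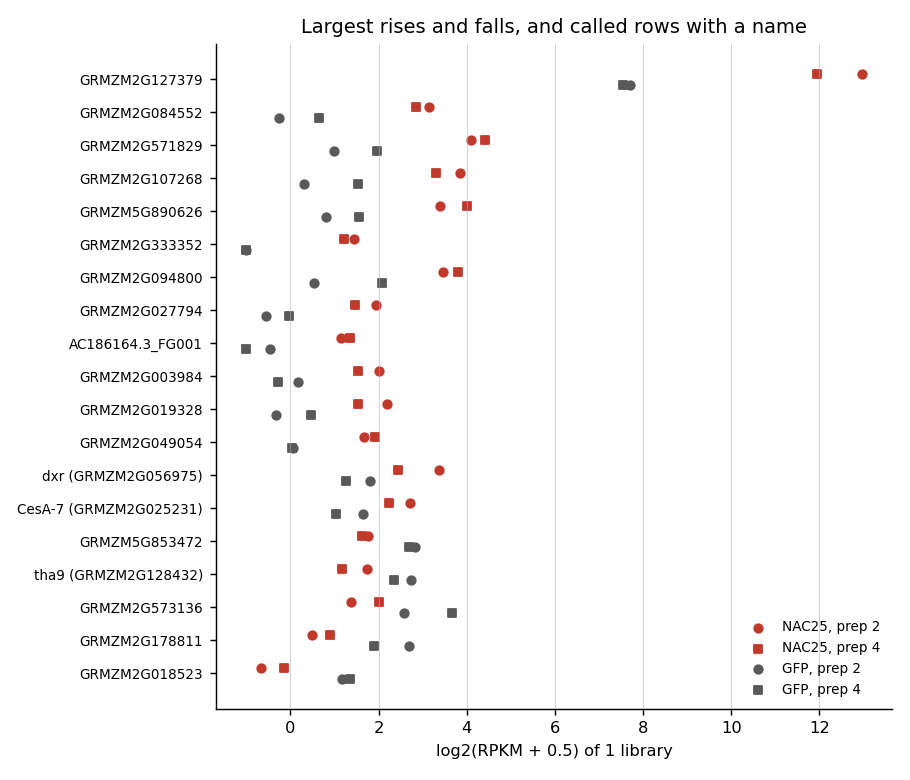
Each row is 1 gene among the 12 largest rises, the 5 falls and the called genes with a name, and each point is 1 library on a log2(RPKM + 0.5) axis; red marks NAC25 and grey GFP, with circles for prep 2 and squares for prep 4. Red and grey points do not overlap in any gene shown, and the gap is widest for GRMZM2G127379, at 7971 and 3945 RPKM in NAC25 cells against 208 and 186 RPKM in GFP cells.

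Only 2 of the 51 higher genes carry a name. The first, dxr (GRMZM2G056975), encodes 1-deoxy-D-xylulose 5-phosphate reductoisomerase, which makes the first committed intermediate of the plastid isoprenoid (MEP) pathway that feeds carotenoids and chlorophyll side chains. It held 9.76 and 4.92 RPKM in NAC25 cells, against 3.00 and 1.91 RPKM in GFP cells (236 and 80 reads, against 55 and 36 reads), a change of 1.36 ± 0.29 with an adjusted p of 0.0355 in limma. NAC25 cells were higher in both preps, by 1.55 in prep 2 and 1.17 in prep 4, and the call was lost without the prep block (adjusted p of 0.099) and without NAC25 replicate 2 or either GFP library (0.98 to 1.75 with any 1 library left out). The other 4 tested genes of the pathway, a list added after values were seen, were not called. Among them dxs1, which encodes the enzyme before dxr, held 4.93 and 2.79 RPKM in NAC25 cells, against 5.37 and 3.43 RPKM in GFP cells. For lw1, which encodes the last enzyme of the pathway, the values were 81.4 and 39.0 RPKM in NAC25 cells, against 72.3 and 36.5 RPKM in GFP cells, and both groups were lower in prep 4.

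The second named gene was CesA-7 (GRMZM2G025231), a cellulose synthase. It held 6.03 and 4.22 RPKM in NAC25 cells, against 2.65 and 1.56 RPKM in GFP cells, a change of 1.12 ± 0.21 with an adjusted p of 0.0165 in limma. The prep changes were 1.05 and 1.19, but the call was lost without NAC25 replicate 2 (0.97, adjusted p of 0.229) or GFP replicate 4 (0.90, adjusted p of 0.159), with preps 2 and 4 alone (adjusted p of 0.0707), and with a pseudocount of 1, where the change was 0.99. It was the 1 called member of 16 tested in the cellulose list, whose median change was 0.24 with 10 positive and 6 negative members, beside a median of −0.01 over all rows. An unadjusted p below 0.05 in limma was found in 6 of the 16, beside 4010 of all 28122 rows. CesA-5 held 3.04 and 3.25 RPKM in NAC25 cells, against 1.91 and 1.59 RPKM in GFP cells (0.70 ± 0.26), and CesA-8 held 6.27 and 3.10 RPKM, against 2.52 and 2.86 RPKM (0.63 ± 0.21). CesA-6, the most expressed cellulose synthase in these cells on the per-length scale, differed little, with 30.2 and 28.1 RPKM in NAC25 cells against 31.6 and 27.8 RPKM in GFP cells. The secondary wall gene cesa10 held 14.6 and 17.4 RPKM in NAC25 cells, against 18.8 and 18 RPKM in GFP cells. Against the other regulators the CesA-7 change was 0.57 ± 0.15 and not called, and the list's median was 0.04.

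All 5 lower genes were of low expression in control cells, with GFP means of 1.91 to 8.81 RPKM. GRMZM2G018523 held 0.134 and 0.398 RPKM in NAC25 cells (1 and 2 reads), against 1.76 and 2.06 RPKM in GFP cells, a change of −1.67 ± 0.33 with an adjusted p of 0.0251 in limma. GRMZM2G178811 held 0.912 and 1.35 RPKM in NAC25 cells, against 6.002 and 3.22 RPKM in GFP cells (−1.60 ± 0.29), and GRMZM2G573136 held 2.07 and 3.52 RPKM, against 5.46 and 12.2 RPKM (−1.43 ± 0.33). GRMZM5G853472 held 2.89 and 2.58 RPKM in NAC25 cells, against 6.61 and 5.94 RPKM in GFP cells. The call of GRMZM2G573136 was lost without the prep block (adjusted p of 0.0818) and without either NAC25 library or GFP replicate 4, and its change ran from −1.97 to −0.89 with 1 library left out. Those of the other 3 were each lost in at least 2 of the 4 fits with 1 library left out, where the change of GRMZM2G178811 ran from −1.95 to −1.26, that of GRMZM2G018523 from −1.91 to −1.44 and that of GRMZM5G853472 from −1.19 to −0.94. For GRMZM2G178811 and GRMZM2G573136 a GFP library held the highest value of all 50 libraries. The other regulators also averaged below GFP in all 5, with a median difference of −0.73, and against them 0 of the 5 were called. Over all tested rows they averaged above GFP in 49.8%. Since the 5 were chosen for standing below these same GFP libraries, nothing is read from that sign.

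The fifth was tha9 (GRMZM2G128432), a homolog of Tha4, a subunit of the twin-arginine translocase that carries folded proteins into chloroplast thylakoids. It held 2.85 and 1.75 RPKM in NAC25 cells, against 6.13 and 4.62 RPKM in GFP cells, a change of −1.08 ± 0.23 with an adjusted p of 0.0299 in limma. The reference gives the same record to a second row, GRMZM2G128454, which held 4.88 and 3.33 RPKM in NAC25 cells, against 4.11 and 3.50 RPKM in GFP cells (0.08 ± 0.29). How reads shared between such rows were counted is not given in the sources used here, so the fall of the first row is uncertain. The call was lost without the prep block (adjusted p of 0.323) and without NAC25 replicate 4 or either GFP library (−1.36 to −0.80 with any 1 library left out). Of the 6 tested rows of that translocase, a list added after values were seen, the other 5 were not called, and hcf106, for a further subunit, held 11.4 and 11.9 RPKM in NAC25 cells, against 10.5 and 15.3 RPKM in GFP cells.

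To see how far the changes depended on the GFP libraries, NAC25 was next set against the mean of the 11 other regulators of preps 2 and 4. Here 52 rows (0.185% of those tested) were called higher and 12 (0.0427%) lower. Some of the 12 were high in the cells of 1 other regulator, as given below. With limma-voom on recovered reads, 171 were higher and 1 lower, and with a pseudocount of 1, 23 and 9. Without the prep block 31 were higher and 4 lower, without NAC25 replicate 2 27 and 7, and without NAC25 replicate 4 68 and 10, where 2 of the 64 changes turned sign. This comparison shares the NAC25 libraries with the one against GFP.

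For the 51 genes called higher against GFP, the change against the other regulators was positive in 50 and called in 26. The 51 were chosen for high values in these same NAC25 libraries. Nothing is thus read from how the next counts compare with all tested rows. Both NAC25 libraries lay above all 22 libraries of the other regulators in 21 of the 51, which was so in 0.846% of all tested rows. They lay above all 48 other libraries in 9 of the 51, which was so in 0.245% of all tested rows. Besides GRMZM2G127379, GRMZM2G571829 and GRMZM2G027794, these were (named after their values were seen) GRMZM2G135730, GRMZM2G180728, GRMZM2G079803, GRMZM2G174610, GRMZM2G060554 and GRMZM2G078576. In GRMZM2G078576, the most expressed of these 6, NAC25 cells held 27.2 and 29.8 RPKM, against 12.7 and 14.98 RPKM in GFP cells, a change of 1.02 ± 0.21 whose call was lost without the prep block (adjusted p of 0.217 in limma).

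In 48 of the 51 genes the other regulators also averaged above GFP, with a median difference of 0.39, and in 49.8% of all tested rows. Since the 51 were chosen for standing above these same GFP libraries, nothing is read from that sign. For the mean of the other regulators against GFP, 7 rows (0.0249% of those tested) were called higher and 0 lower. GRMZM2G174663, the 1 gene without a positive change against the other regulators, is an example, with 2.86 and 6.24 RPKM in NAC25 cells, a median of 4.41 RPKM over the 22 libraries of the other regulators, and 0.503 and 2.69 RPKM in GFP cells. Its change was 1.41 ± 0.32 against GFP and −0.02 against the other regulators. Among the other regulators, an EREB69 library was the highest of the 22 in 21 of the 51 genes (41.2%, beside 9.35% of all tested rows) and a MYB131 library in 13 (25.5%, beside 16.9%). Over all 48 other libraries, a NAC29 library was the highest in 19 of the 51 (37.3%, beside 7.01% of all tested rows). An EREB69 library was so in 13 (25.5%, beside 6.49%) and a MYB131 library in 9 (17.6%, beside 11.1%). Without the EREB69 libraries, the deepest of the study, 45 rows were called higher and 4 lower against GFP.

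**Figure D3:**
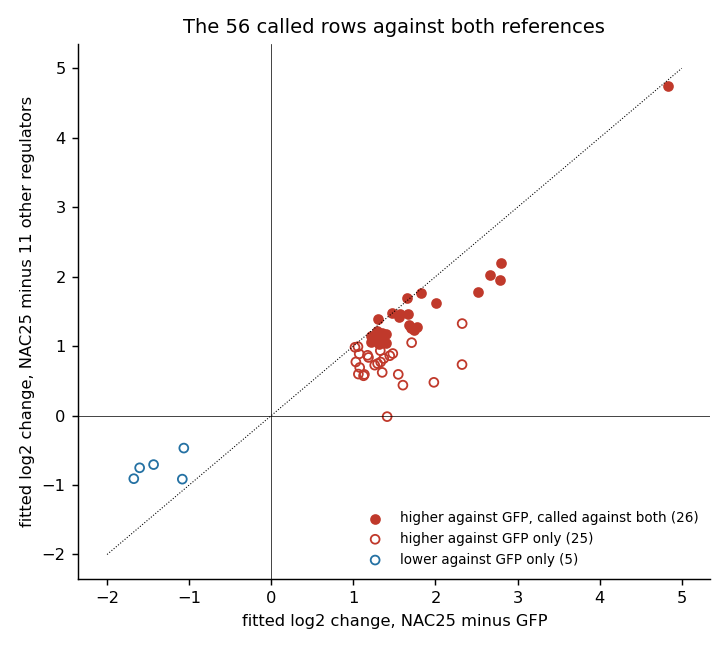
Each point is 1 of the 56 rows called against GFP, with its log2 change against GFP on the x axis and against the 11 other regulators on the y axis; filled points were called in that direction against both (26) and the dotted line marks equal changes. Most red points lie below the line, and the 5 blue points, lower against GFP, lie above it. The rows were chosen on their x axis values, so nothing is read from these sides.

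Of the 51 higher genes, 7 were called also with any 1 of the 4 libraries left out and in 8 other settings (no prep block, pseudocounts of 0.1 and 1, no filter, rescaled libraries, limma-voom, preps 2 and 4 alone, and no EREB69 libraries). They were GRMZM2G127379, GRMZM2G084552, GRMZM2G027794 and GRMZM2G003984, given above, and GRMZM2G040905, GRMZM5G815369 and GRMZM2G461936, which were singled out after their values were seen. GRMZM2G040905 held 1.27 and 1.19 RPKM in NAC25 cells (38 and 24 reads), against 0.132 and 0.0427 RPKM in GFP cells (3 and 1 reads), a change of 1.56 ± 0.17 with an adjusted p of 1.07e-05 in limma. GRMZM5G815369 held 15.3 and 8.52 RPKM in NAC25 cells (544 and 204 reads), against 3.63 and 3.93 RPKM in GFP cells (98 and 109 reads), a change of 1.48 ± 0.20 (adjusted p of 0.000409). Both of these genes were higher still in an EREB69 library, at 1.86 and 30.0 RPKM. GRMZM2G461936 held 1.83 and 0.883 RPKM in NAC25 cells, against 0.181 and 0.117 RPKM in GFP cells, and no library of the other regulators of these preps went above 0.380 RPKM.

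The most expressed gene among the rises after GRMZM2G127379, also singled out after its values were seen, was GRMZM2G162158. It held 279 and 183 RPKM in NAC25 cells (4111 and 1816 reads), against 92.2 and 91.4 RPKM in GFP cells (1033 and 1051 reads), a change of 1.29 ± 0.17 with an adjusted p of 0.000237 in limma. The lower NAC25 library stood just under the highest EREB69 library, at 186 RPKM, and the median over the 22 libraries was 104 RPKM. Without the prep block the adjusted p was 0.189, and without NAC25 replicate 2 the change was 0.86 and the call was lost.

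**Figure D4:**
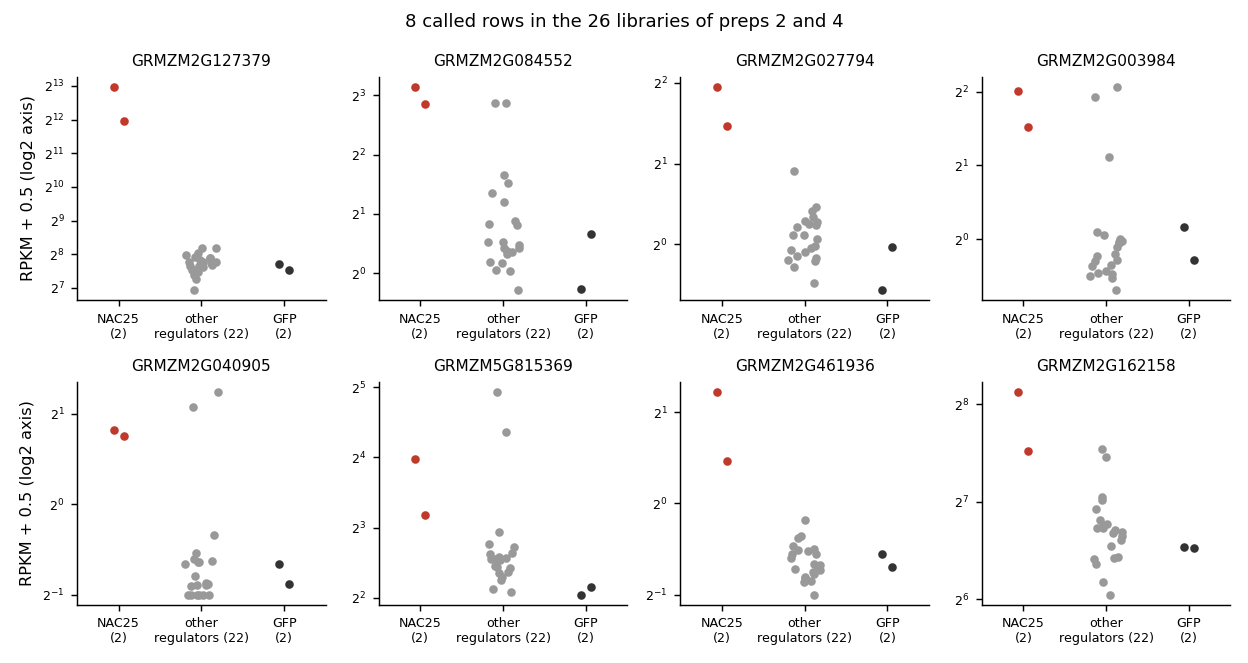
Each panel is 1 gene, the 7 that kept their call in every setting but the fit of 4 libraries plus GRMZM2G162158, and each point is 1 of the 26 libraries of preps 2 and 4 (NAC25, 2; other regulators, 22; GFP, 2), as RPKM + 0.5 on a log2 axis. The NAC25 points stand above the GFP points in every panel. Both EREB69 points pass both NAC25 points in GRMZM2G040905 and GRMZM5G815369. Both also pass the lower NAC25 point in GRMZM2G084552 and GRMZM2G003984, and 1 of them does in GRMZM2G162158.

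Among the 12 rows lower in NAC25 cells than in the other regulators, some were high in the cells of 1 regulator. The row fl1 (also zfl1, GRMZM2G098813) reached 11594 RPKM in ZFL1 cells and OFP16 (GRMZM2G055257) 10456 RPKM in OFP9 cells. Both were at or under 0.0691 RPKM in NAC25 and GFP cells. Their calls thus rest on the reference, and nothing is read from them about NAC25. In 3 of the 12, which were chosen on these same libraries, both NAC25 libraries lay below all 22, as in 0.555% of all tested rows. One of them, singled out after its values were seen, was GRMZM2G469528, with 2.39 and 2.37 RPKM in NAC25 cells, 3.08 to 8.64 RPKM in the other regulators and 10.0 and 7.04 RPKM in GFP cells. It was not called against GFP, nor was any other of the 12. Among the 52 higher rows, ada2 (GRMZM5G815323), for a transcriptional adaptor that acts with a histone acetyltransferase in yeast, held 4.53 and 2.71 RPKM in NAC25 cells, 0.286 to 1.85 RPKM in the other regulators and 1.31 and 1.49 RPKM in GFP cells. Its change was 1.34 ± 0.25 against the other regulators (adjusted p of 0.00565 in limma) and 1.08 against GFP, where it was not called (adjusted p of 0.129).

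Another 5 of these 52 higher rows rested on the NAC25 library of prep 4 alone. GRMZM2G418644 (PG14, also pgl1), for a polygalacturonase, a pectin-cutting enzyme known from maize pollen, held 2.65 RPKM in that library, against 0.0372 RPKM in NAC25 cells of prep 2 and a listed 0 in both GFP libraries. GRMZM2G181202 held 2.86 RPKM there and was listed at 0 in NAC25 cells of prep 2. GRMZM2G106899, GRMZM2G454497 and GRMZM2G073155 held 2.15 to 2.54 RPKM there, and 0 to 0.289 RPKM in prep 2. In all 5 the next highest library was DOF25 of prep 1, at 1.01 to 1.72 RPKM. OCL4 of prep 1 held 0.0861 to 1.29 RPKM, and the 44 libraries outside NAC25, GFP of these preps, DOF25 and OCL4 of prep 1 stayed at or under 0.494 RPKM.

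A list of 10 pollen genes, added after these values were seen, was read out beside them. The exopolygalacturonase gene ExoPG (GRMZM2G394259) held 1.81 RPKM, the pectin methylesterase gene pme1 (first listed as C5) 0.743 RPKM, EXPB10, for a beta-expansin, 0.601 RPKM and the profilin gene GRMZM5G876285 0.688 RPKM in NAC25 cells of prep 4, against 0.0381 RPKM for ExoPG and a listed 0 for the others in NAC25 cells of prep 2. In GFP cells pme1 held 0.107 RPKM in prep 4, and every other value was a listed 0. These 4 were too low to be tested. In DOF25 cells of prep 1 they held 0.859, 1.14, 0.880 and 0.824 RPKM in the same order. Among the other 5 of the list, the profilin gene prf2 (GRMZM2G109842) held 3.63 RPKM in NAC25 cells of prep 4 and 2.05 RPKM in those of prep 2, against 1.88 and 1.29 RPKM in GFP cells of preps 4 and 2, and its highest value was 4.64 RPKM in DOF25 cells of prep 1. The profilin row GRMZM5G877388 held 170.3 and 177 RPKM in NAC25 cells, against 209 and 176 RPKM in GFP cells. Summed over the list, NAC25 cells had 224 and 237 RPKM, against 267 and 227 RPKM in GFP cells. Of the 5 rows called against the other regulators, 0 were called against GFP in limma (unadjusted p below 0.05 in 5, adjusted p from 0.126 to 0.154), and what the pattern comes from was not tested.

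The difference from MYB131, a regulator of another family expressed in the same preps, was tested next. NAC25 was higher in 66 rows (0.235% of those tested) and lower in 557 (1.98%), or 2.22% in all. Of the 51 genes called higher against GFP, 23 were higher in NAC25 than in MYB131 cells and 2 were lower, GRMZM2G145374 (−2.78) and GRMZM2G107092 (−1.40). Since the 51 were chosen for high values in these same NAC25 libraries, nothing is read from the larger of these counts. GRMZM2G145374 held 1.29 and 0.418 RPKM in NAC25 cells, against 0.0741 RPKM and a listed 0 in GFP cells, while MYB131 cells of prep 2 reached 10.7 RPKM. CesA-7 was not called in that difference (0.10). The comparisons of NAC25 and of MYB131 with GFP share the GFP libraries, so the overlap of their calls is not counted here. Side by side, the median change over the 51 genes, which were chosen on the first of these values, was 1.40 in NAC25, 0.46 in MYB131 and 0.53 in NAC29 cells, and CesA-7 changed by 1.12 ± 0.21 in NAC25 and 1.03 ± 0.21 in MYB131 cells.

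NAC29 and NAC119, the other NAC regulators of the study, were expressed in preps 1 and 3 with GFP libraries of their own. NAC29 had 351 rows called higher (1.25% of those tested) and 70 lower (0.249%). NAC119 had 4 higher (0.0142%) and 4 lower (0.0142%), 0.0284% in all, and 0 of the 51 genes among them. Of the 51 genes higher in NAC25 cells, 12 were also called higher in NAC29 cells, which is 23.5% of the NAC25 genes and 3.42% of the NAC29 genes. They include dxr and CesA-7. In NAC29 cells dxr held 6.95 and 7.44 RPKM, against 2.97 and 3.196 RPKM in their GFP libraries, and CesA-7 held 5.51 and 5.198 RPKM, against 2.49 and 2.31 RPKM. GRMZM2G461936 changed by 1.47 ± 0.20 in NAC25 and by 2.02 ± 0.20 in NAC29 cells, where it held 2.02 and 2.17 RPKM, against 0.171 and 0.107 RPKM in GFP cells. GRMZM5G828396 changed by 1.33 ± 0.23 in NAC25 and by 1.87 ± 0.23 in NAC29 cells.

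Tested as a difference of the 2 changes, the change was higher for NAC25 than for NAC29 in 11 rows (0.0391% of those tested) and lower in 40 (0.142%), 0.181% in all. Of the 51 genes, 4 were among the 11: GRMZM2G127379, GRMZM2G084552 (3.22 ± 0.56), GRMZM2G040905 (1.42 ± 0.24) and GRMZM5G815369 (1.56 ± 0.29). For dxr the difference was 0.26 ± 0.41 and for CesA-7 0.11 ± 0.29. The difference from NAC119 was called in 78 rows upward (0.277% of those tested) and 60 downward (0.213%), 0.491% in all. Of the 51 genes, 24 were among the 78 and 0 among the 60. Since the 51 were chosen for their rise in these same NAC25 libraries, nothing is read from their counts in either difference. The totals of rows called in the differences were 17 for NAC29 and 8 for NAC119 without the prep block. Without NAC25 replicate 4 they were 23 and 62, and without NAC25 replicate 2 the total for NAC119 was 13.

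**Figure D5:**
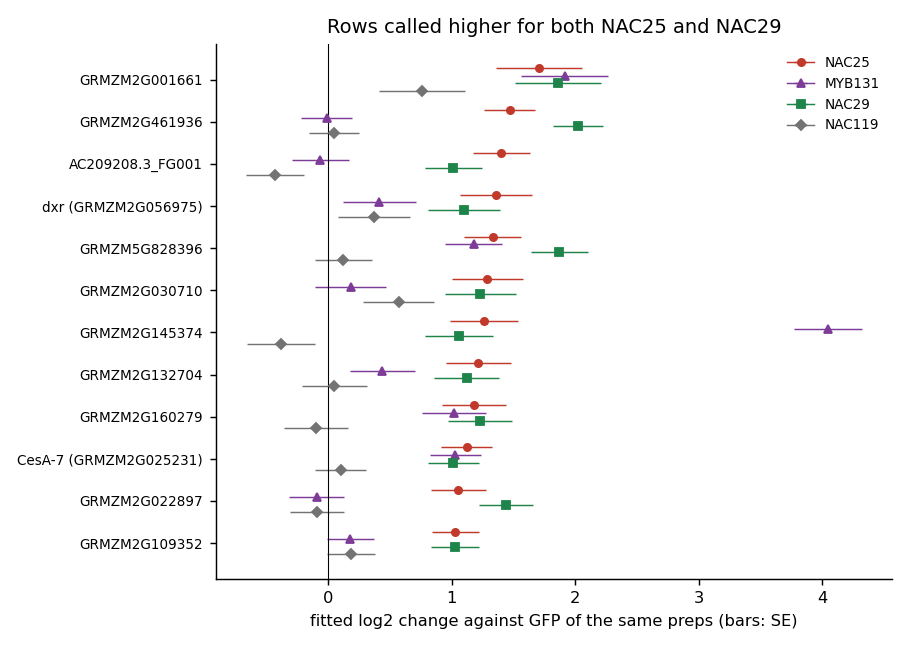
The 12 genes called higher for both NAC25 and NAC29 are listed by their NAC25 change, with the fitted log2 change of each regulator against GFP of its own preps on the x axis and the standard error as bars. NAC25 and NAC29 changes lie between 1.01 and 2.02 and NAC119 changes below them in every gene, while MYB131, which shares the GFP libraries of NAC25, varies from gene to gene. The genes were chosen for NAC25 and NAC29 changes of at least 1, so nothing is read from the lower place of NAC119.

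The PHAS loci were the readout the study was built for. Of 9 loci, 7 were tested and 0 were called against GFP in limma, with 0 at an unadjusted p below 0.05 and changes from −0.44 to 0.27. 21PHAS_NO232, a source of 21-nt phasiRNAs, held 4.76 and 5.79 RPKM in NAC25 cells, against 2.00 and 8.61 RPKM in GFP cells, so the GFP values spanned those of NAC25 (0.27 ± 0.43). 21PHAS_NO556 held 1.12 and 1.34 RPKM in NAC25 cells, against 0.889 and 1.25 RPKM in GFP cells, and 21PHAS_NO583 held 0.588 and 1.53 RPKM, against 0.967 and 1.13 RPKM. The 24-nt source 24PHAS_NO160 held 2.62 and 3.75 RPKM in NAC25 cells, against 4.81 and 4.08 RPKM in GFP cells (−0.44 ± 0.27). 24PHAS_NO166, the one abundant locus, held 233 and 248 RPKM in NAC25 cells, against 276 and 270 RPKM in GFP cells (−0.19 ± 0.14). The remaining tested loci, 24PHAS_NO8 and 24PHAS_NO42, held 4.40 and 0.816 RPKM and 0.788 and 0.720 RPKM in NAC25 cells, against 1.45 and 3.99 RPKM and 0.798 and 1.40 RPKM in GFP cells. The untested 24PHAS_NO35 and 24PHAS_NO44 stayed under 1 RPKM in all 4 libraries. Most loci held few reads, 4 and 7 in NAC25 cells against 5 and 6 in GFP cells at 21PHAS_NO583, whose standard error was 0.59.

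Genes that make or use small RNAs gave 0 calls among 14 tested. The largest change was in HST, whose symbol is that of an Arabidopsis miRNA export factor and has no full name in the reference, with 9.52 and 7.33 RPKM in NAC25 cells against 4.66 and 4.14 RPKM in GFP cells (0.86 ± 0.21, adjusted p of 0.0654 in limma). The Dicer gene dcl1 held 22.9 and 22.8 RPKM in NAC25 cells, against 27.8 and 24.5 RPKM in GFP cells. rdr6, for an RNA-dependent RNA polymerase that starts trans-acting siRNAs, held 3.40 and 5.41 RPKM in NAC25 cells, against 2.64 and 3.54 RPKM in GFP cells. The list's median change was 0.14, with 10 positive and 4 negative members.

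The NAC, MYB, lignin, wall loosening and senescence lists had 0 called members against GFP in limma. At an unadjusted p below 0.05 stood 3 of 18, 6 of 20, 1 of 13, 1 of 2 and 6 of 27 tested members, beside 4010 of all 28122 rows. The wall loosening list held 7 rows, so most of it was not tested. Among 18 tested NAC genes the changes ran from −0.47 to 0.43 with a median of −0.07, and NAC40 had the lowest, with 161 and 150 RPKM in NAC25 cells against 229 and 201 RPKM in GFP cells. Of 20 tested MYB genes 15 had negative and 5 positive changes, with a median of −0.15. myb31 (first listed as MYB1_2), a repressor of lignin genes in maize, held 4.86 and 3.69 RPKM in NAC25 cells, against 1.64 and 1.67 RPKM in GFP cells, and its change of 1.14 ± 0.32 missed the threshold (adjusted p of 0.0947 in limma). c1, the activator of anthocyanin genes, held 0.310 and 0.460 RPKM in NAC25 cells, against 2.04 and 1.46 RPKM in GFP cells (adjusted p of 0.254). The 13 lignin and phenylpropanoid genes ran from −0.38 to 0.24, counting 1 row listed at 0 in all 4 libraries, which could not be called. In the senescence list of 27 the highest value was that of LON2, for a peroxisomal protease, with 19.5 and 22.5 RPKM in NAC25 cells against 11.1 and 15.3 RPKM in GFP cells (0.67 ± 0.18), and SGR1 (GRMZM2G379563, with a second row that holds nearly the same values), for a chlorophyll-degrading protein, held 27 and 9.49 RPKM, against 31.8 and 14.7 RPKM.

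Hormone, stress and housekeeping lists were likewise without a call against GFP in limma. The counts tested were 41 for abscisic acid and LEA genes, 26 for ethylene, 41 for jasmonate, 25 for auxin, 13 for defence, 27 for heat shock, 17 for starch and sugar, 35 for ribosomal proteins and 25 for histones and the cell cycle. Their median changes lay between −0.08 and 0.07. Members at the low end of their lists were cki1, with 8.49 and 10.5 RPKM in NAC25 cells against 14.1 and 17.9 RPKM in GFP cells (−0.72 ± 0.21), RPL10 (row GRMZM2G088005, 1 of 2 of that name), with 13.4 and 24.6 RPKM against 23.8 and 34.3 RPKM (−0.64 ± 0.24), and the chaperone gene HSP90-1, with 168 and 295 RPKM against 301 and 361 RPKM (−0.57 ± 0.16). AUX3 held 4.66 and 5.06 RPKM in NAC25 cells, against 7.79 and 6.98 RPKM in GFP cells (−0.56 ± 0.15). Their adjusted p values, in the order given, were 0.104, 0.212, 0.0947 and 0.09. At the high end stood Kiwellin-1 of the defence list, with 3.08 and 1.83 RPKM in NAC25 cells against 1.21 and 0.921 RPKM in GFP cells (0.89 ± 0.30), EREB26 of the ethylene list, with 2.05 and 1.92 RPKM against 0.821 and 0.971 RPKM (0.83 ± 0.29), and PP2C30 of the abscisic acid list, with 1.46 and 0.786 RPKM against 0.290 and 0.509 RPKM (0.83 ± 0.24). The auxin gene ARF11 held 1.30 and 0.644 RPKM in NAC25 cells, against 0.533 and 0.222 RPKM in GFP cells (0.73 ± 0.28). These 4 are low in both groups, were chosen after their values were seen and had adjusted p values of 0.1 to 0.226. At an unadjusted p below 0.05 in limma stood 10 of 41 abscisic acid, 1 of 26 ethylene, 0 of 41 jasmonate and 5 of 25 auxin genes. So did 1 of 13 defence, 4 of 27 heat shock, 5 of 17 starch and sugar, 2 of 35 ribosomal protein and 2 of 25 histone and cell cycle genes. Over all rows it was 4010 of 28122.

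Marker genes of leaf and anther cell types had 0 calls (7 mesophyll, 3 bundle sheath, 7 epidermis, 6 xylem and 2 anther genes tested), with 1 mesophyll marker at an unadjusted p below 0.05 in limma. The 9 mesophyll markers summed to 235 and 183 RPKM in NAC25 cells, against 280 and 169 RPKM in GFP cells, led by pdk1 (pyruvate orthophosphate dikinase of the C4 cycle) at 167 and 141 RPKM, against 202 and 125 RPKM. pep1, for the carbon-fixing enzyme of C4 mesophyll, was at 0.185 to 0.550 RPKM in all 4 libraries, so this defining marker was near 0 in cells of dark-grown leaves. The 8 epidermis markers summed to 50.1 and 57.4 RPKM in NAC25 cells, against 48.2 and 49.7 RPKM in GFP cells. The bundle sheath markers summed to 20.7 and 17.3 RPKM, against 24.7 and 15.6 RPKM, and the xylem markers to 1085 and 894 RPKM, against 1181 and 1026 RPKM. Among the tested xylem markers, 1 Laccase-13 row was listed at 0 in all 4 libraries, so a call was not possible there. The anther gene ms32 held 16.1 and 18.2 RPKM in NAC25 cells, against 16.2 and 14.8 RPKM in GFP cells. The gene ocl4, also known from anthers and counted in the epidermis list too, was at or near 0. It passed the filter through other libraries, so nothing is read from the lack of a call.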

How the data were processed

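Polyadenylated RNA of maize leaf protoplasts was sequenced in 50 libraries, and the authors deposited 1 table of RPKM. The submitters' processing notes name HISAT2 2.1.0, featureCounts, Subread 1.6.3, edgeR 3.20.9 and the build B73 RefGen_v3. How multi-mapped reads and strand were treated is not given in the sources used here. Samples were grouped by the labels, and the replicate number is the prep number.

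Here 1 linear model on log2(RPKM + 0.5) with 25 groups was fitted in limma 3.58.1 (R 4.3.3) with trended moderation and prep as a block, on rows that reached 1 RPKM in 2 or more libraries, leaving 23 residual degrees of freedom. The labels say that a number marks a shared protoplast prep, which pairs the libraries. As a check, the prep 4 minus prep 2 differences of NAC25 and GFP correlated at 0.336 over rows, and 78 pairs of groups had a median of 0.253 (−0.05 to 0.47). The spread in p-values is what remains between the libraries of a group once the shared prep difference is taken out. It is pooled over the 25 groups, and each prep is a pool of seedlings.

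Whole reads were worked back from the steps of the RPKM values in 30213 of 30213 rows (100% of values within 0.05 reads of a whole number) and used for depth and for limma-voom as an alternative, which called 46 rows higher and 3 lower against GFP. The deposited RPKM carry a factor per library of 0.939 to 1.09. Since reads carry no molecular identifiers, read numbers may overstate the number of molecules. The fit and the recovery were also run on simulated data. Those for the fit had a common spread and no prep difference, so they cannot speak to the prep block.

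Names came from RefSeq records of Zm-B73-REFERENCE-NAM-5.0, which matched 14595 rows, 25 of the 56 called ones among them, and gave a name to 1966. That build differs from the authors', so no positions are given, and no sequences were at hand. Named genes were the 12 largest rises and falls among called rows that moved alike in both preps and averaged at least 1 RPKM in the higher group, called rows with a name, up to 4 called members per list, and otherwise the extremes of a list above 2 RPKM; other genes were chosen after their values were seen. Members, lists and tests were chosen with earlier results of these data known. Alternatives are given in the closing section.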

Additional observations from a re-analysis of the deposited data

How the results depend on the processing

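Against GFP, 51 higher and 5 lower rows became 15 and 3 with no prep block, 11 and 2 with preps 2 and 4 alone, and 0 and 0 with the 4 libraries alone. The lower count was 3 with limma-voom. With 1 library left out, 16 to 58 were higher and 2 to 4 lower. Of the 56 called rows, 18 stayed called without the block, 39 with a pseudocount of 0.1, 36 with a pseudocount of 1, 31 with limma-voom and 11 with preps 2 and 4 alone, and all 56 with no filter and with rescaled libraries (factors 0.991 to 1.02). Leaving out 1 library at a time, 7 of the 56 were called each time and 13 never. Against the other regulators, 52 higher and 12 lower rows became 31 and 4 with no prep block, 23 higher with a pseudocount of 1, and 171 and 1 with limma-voom, and 27 to 68 and 7 to 10 with 1 NAC25 library left out. The causes were not tested. The difference from NAC29, called in 51 rows, was 17 with no prep block and 23 to 51 with 1 NAC25 library left out. The difference from NAC119, called in 138 rows, was 8 with no prep block and 13 to 62 with 1 NAC25 library left out, and that from MYB131, called in 623 rows, was 482 to 542 in the other settings. Of 19 named genes called against GFP, 9 lost the call without the block, 14 with preps 2 and 4 alone, 19 with the 4 libraries alone, 7 with limma-voom, 4 with either pseudocount, 3 without EREB69, 13 without NAC25 replicate 2, 8 without NAC25 replicate 4, 13 without GFP replicate 2 and 10 without GFP replicate 4, and 0 changed sign. Where a NAC25 or GFP group was left with 1 library, it was assumed to vary like the other groups. Read numbers behind the rises are low: 1 read was worth 0.0537 to 0.0798 RPKM in a row of median length in the 4 libraries, and 37 of the 51 higher rows had a NAC25 library under 50 reads.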
